A study of Canis lupus familiaris with 9 samples.

Results

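The samples described here were CD4+ T cells sorted from healthy dogs, the normal controls of a canine study of T cell lymphoma. They are the 3 samples titled as controls among 9 in the series, chosen by title alone, and the 6 lymphomas were not used. Per the labels, each control came from a hound that was female, not neutered and 1 year old. All 3 share the same disease state (healthy control), breed, sex and cell type, and no treatment, genotype or batch is given. The tissue the cells came from and the gate used to sort them are not given either. The labels do not say that the controls are 3 separate dogs, so the spread between them may include technical spread.

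CD4+ T cells are the helper arm of adaptive immunity: they recognise peptides on MHC class II molecules through the T cell receptor and direct B cells, macrophages and cytotoxic T cells. Most CD4+ cells of a young healthy animal are naive or resting, recirculate through lymphoid tissue with the help of CCR7, and depend on IL7R for survival. On activation they express immediate early genes within minutes, divide, and can become Th1, Th2, Th17, follicular helper or regulatory cells.

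Messenger RNA was sequenced in bulk, and the deposited values are read counts divided by 1 factor per library, called normalised reads below. The libraries held 11710623, 18488468 and 15784015 reads in controls 1, 2 and 3. A level of 3 reads, the limit that a count of 0 allows, equals 4.09, 2.48 and 2.78 normalised reads in the same order. That limit covers counting error only. Of 28008 annotated features, 21545 had reads in at least 1 control and 13132 had at least 10 normalised reads in every control. Reads were not divided by transcript length, so values are compared between samples for the same gene, and not between genes. In bulk RNA, fewer cells of a type and less RNA per cell cannot be told apart. Values below are given in the order control 1, control 2, control 3, and means are followed by the SD over these 3 samples.

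With 1 group there is no contrast and no test. A gene is instead called variable where its highest value was at least 2 times its lowest, among the 11164 features with a mean of at least 50 normalised reads. By this rule 851 of 11164 features, or 7.62%, were variable, and the count of variable members in each gene group is read against that share. Control 1 was the sample apart in 555 of the 851, and without it 174 features were variable, so results in which control 1 is the sample apart rest on that library.

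The chains that define a T cell were abundant and even across the controls. CD3E, a signalling chain of the receptor complex, had 19717, 21022 and 21357 normalised reads (20699 ± 866, n = 3). TRAC, the constant region of the receptor alpha chain, had 15025, 15244 and 12347 (14205 ± 1613). CD3G had 10791, 10703 and 9845, and CD3D had 4156, 4514 and 4360. None of these 4 matched members of a list of 7 was variable, and the median ratio of highest to lowest was 1.09, against 1.29 over all features tested. All 4 had a mean of at least 1000, a level at which variable features were rarer (2.08%). The markers named for these cells were therefore all present: besides CD3E, IL7R had 9116, 7174 and 7486 normalised reads (7925 ± 1043) and CCR7 had 20734, 18291 and 19079 (19368 ± 1247). The CD4 symbol itself was not matched and is not analysed here.

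Below the receptor, 1 of 19 proximal signalling genes was variable (5.26%), close to the 7.62% of all features tested. All 19 had a mean of at least 1000, where 2.08% of features were variable, so the group was not steadier than its level. LCK, the kinase that phosphorylates the CD3 chains, had 10032, 10881 and 11094 normalised reads. ZAP70, which binds the phosphorylated chains, had 7822, 7518 and 8138. PLCG1, the phospholipase that relays the receptor signal, had 11132, 11177 and 11456 (11255 ± 175). The variable member was UBASH3A, a negative regulator of receptor signalling, at 955, 1598 and 2000, with control 1 the low sample. The adaptor LAT was also lowest in control 1, at 2162, 3185 and 3786, a ratio of 1.75 that stayed under the threshold.

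Of the pan-T surface genes, 1 of 15 was variable (6.67%), again close to the share over all features tested. CD5 had 10272, 10649 and 10582 normalised reads (10501 ± 201), CD2 had 8046, 6913 and 7354, and the costimulatory receptor CD28 had 1785, 1688 and 1610. CD6 had 6849, 8636 and 8123 and CD27 had 1342, 1581 and 1437. CD69, an early activation antigen that holds T cells in tissue, was the variable member, at 8886, 5759 and 3114. It also belongs to the immediate early genes described further on, where control 3 was low in many members.

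Transcription factors of the T lineage were present throughout. ETS1 had 37581, 37054 and 39287 normalised reads (37974 ± 1167). LEF1 had 21376, 22000 and 18374, and its relative TCF7, which with LEF1 maintains naive T cells, had 7196, 8940 and 9654. GATA3, needed for CD4 commitment and later for Th2 cells, had 1940, 2315 and 2146. Of the 17 members, 2 were variable (11.8%, against 7.62% of all features tested), both with control 1 apart. In a list of this size that count cannot be told from the share over all features. ZBTB7B, the factor that directs thymocytes to the CD4 lineage, was low there at 463, 1022 and 1045, and MYB was high there at 651, 303 and 305. BCL11B, required for T cell identity, had 725, 1196 and 1069.

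**Figure D1:**
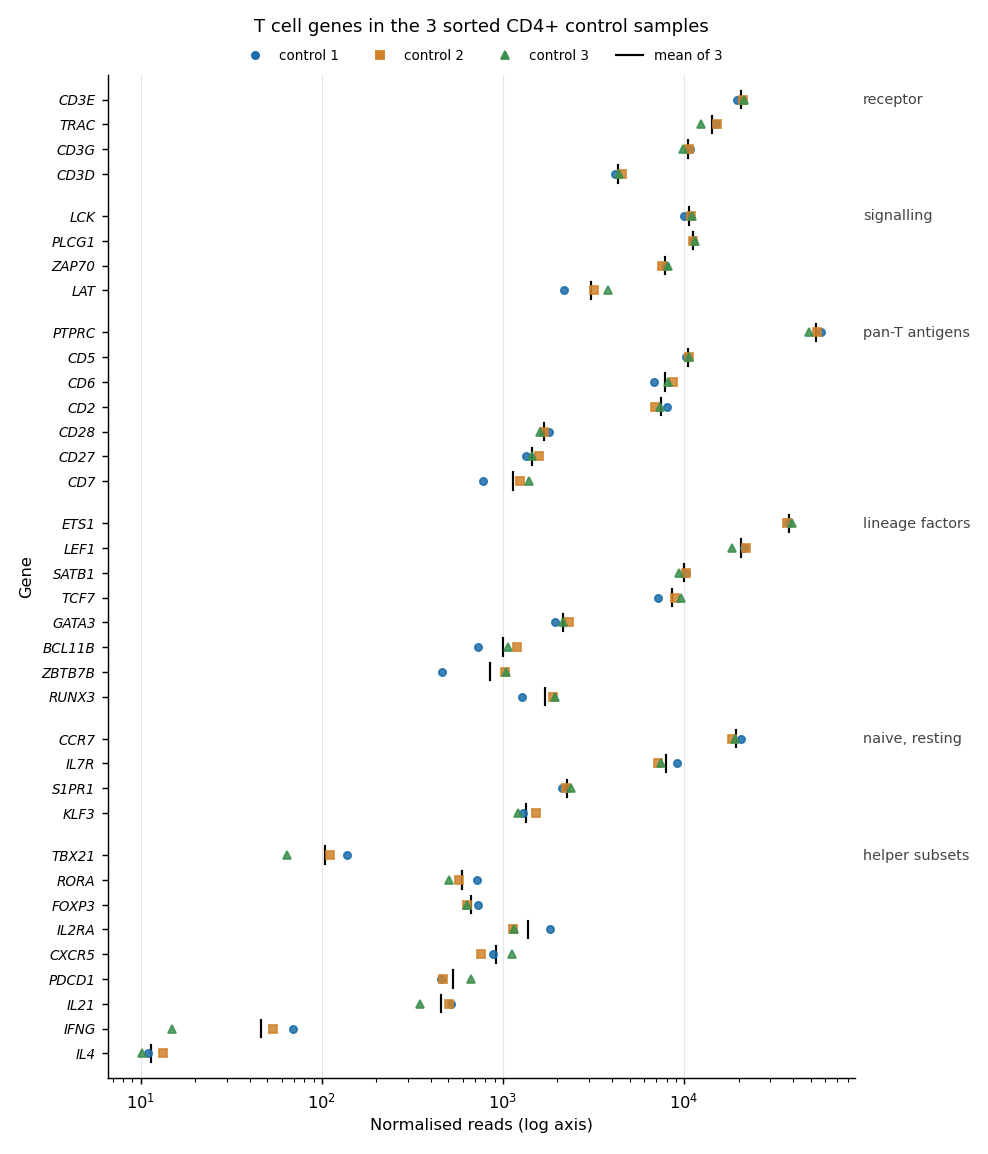
Normalised reads of T lineage, naive and helper-subset genes in the 3 controls, 1 row per gene and 1 marker per control, on a log axis. The points of CD3E and CCR7 nearly coincide, IFNG reaches at most 69.6 and IL4 at most 13.2, and IFNG spreads most among the genes drawn; reads are not divided by transcript length.

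The naive programme was strong in all 3 controls and varied at about the background rate, with 2 of 23 members variable (8.70%). S1PR1, the receptor that lets cells leave lymph nodes, had 2125, 2223 and 2384 normalised reads (2244 ± 131). SATB1, a chromatin organiser, had 10211, 10281 and 9371. The GTPases of the GIMAP family, linked to lymphocyte survival, differed in spread. GIMAP7 had 2950, 2871 and 2938 and GIMAP8 had 2874, 2814 and 2632, while GIMAP4 had 4138, 3310 and 3266 and GIMAP6 had 5401, 5422 and 6672. TXNIP, which restrains glucose uptake, had 20045, 13972 and 12007 and was highest in control 1 without reaching the threshold.

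The 2 variable members of the naive list had different samples apart. LTB, which encodes lymphotoxin beta, was low in control 1 at 2098, 4174 and 5032. TOB1, an antiproliferative gene of quiescent T cells, was low in control 3 at 1721, 1987 and 846. Genes of quiescence that were steady included CDKN1B, the cell cycle inhibitor p27, at 17319, 15420 and 15306 (16015 ± 1131), and FOXO1 at 1538, 1614 and 1348. Of 22 tested genes of G1 control and quiescence, 2 were variable (9.09%, near the 7.62% of all features tested). They were TOB1 and CDKN1A, the latter low in control 3 at 73.7, 90.0 and 17.6.

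Genes of memory and tissue homing were also read, and 4 of 23 tested members were variable (17.4%, against 7.62% of all features tested). CXCR4, the receptor for CXCL12, had 19042, 14359 and 8126 normalised reads, with control 3 the low sample. AHNAK, a scaffold protein higher in memory cells, had 1144, 888 and 494. CCR4, a skin-homing and Th2 receptor, had 222, 102 and 223, with control 2 the low sample, and LGALS3 had 79.2, 44.6 and 31.5. The integrin ITGA4 had 14864, 11903 and 10419, and CD44 had 4405, 3831 and 3581. Neither of the last 2 was variable, while 16 of the 23 tested members were highest in control 1 and 14 were lowest in control 3. Over all 11164 features tested, 44.9% were highest in control 1 and 36.9% lowest in control 3.

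Factors and receptors of every helper subset had reads in each control, and several lineage cytokines were at or near the floor. For Th1 cells, the master factor TBX21 had 138, 111 and 63.9 normalised reads and its cytokine IFNG had 69.6, 53.7 and 14.8. The receptor IL12RB2, which passes the IL-12 signal, had 175, 148 and 83.3. TBX21 and IL12RB2 were the 2 variable members of 7 tested, a list too small to set against the 7.62% of all features tested. Of the 7, 6 were lowest in control 3, against 36.9% of all features tested. IFNG stayed under the mean of 50 and was not tested.

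For Th2 cells, IL4 had 10.9, 13.2 and 10.2 normalised reads, IL5 had 21.8, 7.43 and 9.26, and IL13 had 0, 0 and 0.926, the last at or under the floor of 3 reads. IL4R, the receptor chain, had 2442, 4038 and 4622, lowest in control 1. IL1RL1, the IL-33 receptor, was low in control 3 at 160, 143 and 50.01 and with CCR4 made 2 variable members of 6 tested. RORA, a factor of Th17 cells, had 718, 570 and 502 normalised reads. IL17F had 1.36, 1.65 and 1.85 and IL22 had 0, 1.65 and 0.926, so neither cytokine passed the floor in any control. IL1R1, at 106, 42.1 and 92.6, was the 1 variable Th17 member of 5 tested. With 6 and 5 members tested, neither the Th2 nor the Th17 count can be set against the 7.62% of all features tested.

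Follicular helper genes showed no variable member among 9 tested, too few to differ from the 7.62% of all features tested. ICOS, a costimulator of germinal centre help, had 7556, 4714 and 5219 normalised reads, and SH2D1A, the adaptor SAP, had 4200, 3707 and 3887. CXCR5, which guides cells to follicles, had 883, 760 and 1118, PDCD1 had 453, 469 and 670, and IL21 had 513, 503 and 350. Reads for this subset were found in each control, for receptors and for the cytokine.

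FOXP3, the factor that defines regulatory T cells, was among the steadier subset genes at 730, 629 and 630 normalised reads (663 ± 58.2). IL2RA, the high-affinity IL-2 receptor chain these cells carry, had 1829, 1130 and 1147, and IKZF2 had 905, 636 and 696. Of 10 tested members 2 were variable, a list too small to set against the 7.62% of all features tested. They were GPR83, high in control 1 at 287, 136 and 172, and the suppressive cytokine IL10, low in control 3 at 145, 112 and 71.3. TIGIT came just under the threshold with a ratio of 1.99, at 1217, 676 and 1347, with control 2 the low sample.

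Among cytokines as a whole, 3 of 10 tested were variable (30%, against 7.62% of all features tested). They were LTB, IL10 and IL2, the T cell growth factor, the last at 109, 133 and 55.6 normalised reads. Of the cytokine receptors and their JAK and STAT relays, 1 of 25 tested was variable (4%), IL12RB2. JAK1 had 27346, 25130 and 23236, STAT5B had 4970, 4580 and 4440, and the common gamma chain IL2RG had 3594, 3992 and 4130. JAK2 had 4607, 2731 and 2447, and control 1 was its high sample with a ratio of 1.88. None of 6 tested checkpoint receptors was variable, and LAG3 had 261, 252 and 220. Of the T cell receptor V segments with a symbol, 9 of 11 were tested and 0 were variable. Both lists are too small to set against the 7.62% of all features tested. TRBV16 had 2406, 1720 and 1465 and TRBV3-1 had 1036, 1196 and 1399, so the order of the samples differed between segments.

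Reads were concentrated in a modest set of genes. The 20 features with the most reads took 8.94% ± 0.59 of all reads, and the 100 with the most took 21.3% ± 0.97 (SD, n = 3). First was EEF1A1, the elongation factor that brings transfer RNA to the ribosome, with 2.12%, 1.89% and 1.70% of reads. Next was the mitochondrial COX1, with 1.42%, 1.13% and 1.05%. Both were highest in control 1 and lowest in control 3.

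Of the top 20 features, 4 were mitochondrial, 2 encoded ribosomal proteins and 5 had no symbol. The immune genes among them were B2M, the light chain of MHC class I, at 63564, 66605 and 57137 normalised reads, LAPTM5, a lysosomal protein of blood cells, at 61575, 58166 and 50912, and PTPRC, the leukocyte antigen CD45, at 57212, 54046 and 48742. TPT1, PABPC1, EEF2, ACTB and the splicing factor SF3B1 filled most other places, with EEF2 at 43849, 45226 and 48347 and ACTB at 43702, 44270 and 41157. Ribosomal protein genes took 6.198%, 6.28% and 5.84% of reads. The 13 mitochondrial genes took 3.45%, 3.11% and 2.80%.

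Housekeeping lists had few variable members. None of 31 tested translation factors was variable, nor any of 24 nuclear oxidative phosphorylation genes, 12 glycolytic enzymes, 27 proteasome subunits, 22 splicing and RNA-binding genes or 24 actin and motility genes. The share was 7.62% over all features tested and 2.08% over those with a mean of at least 1000. That level was reached by 30 of the translation factors, 21 of the splicing genes and 23 of the actin genes. At these shares few calls are due in lists of this size, so the counts of 0 do not set the programmes apart. Examples are PSMA7 of the proteasome core, at 1331, 1354 and 1356 normalised reads, LCP1, the actin bundler of leukocytes, at 17212, 17413 and 17399, and HNRNPU at 7482, 7100 and 7249. All 15 common reference genes also stayed under the threshold. GAPDH had 4190, 3140 and 3231, HPRT1 had 1089, 848 and 866, and TBP had 643, 533 and 448, each highest in control 1.

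Among the 2937 features with a symbol and a mean of at least 1000 normalised reads, 10 had the smallest spread. They were XAB2, EIF4H, FLOT1, LAX1, IP6K2, FAM189B, WBP11, XRCC6, KIAA0141 and UPF3B. Their dispersion index, which is 1 where reads vary as counting error alone, ran from 0.006 (XAB2) to 0.062 (KIAA0141). That is less spread than counting error gives on average, so the ranking does not show that these genes are steadier than others. XAB2, which acts in splicing and transcription-coupled repair, had 1273, 1278 and 1273. EIF4H had 4735, 4721 and 4712. LAX1, an adaptor that restrains lymphocyte receptor signalling, had 1991, 2005 and 1991.

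Ribosomal protein genes were the housekeeping group with variable members, 2 of 48 tested (4.17%, against 7.62% of all features tested). At a mean of at least 1000, 1 of 47 was variable, against 2.08% of all features at that level. RPL23A was low in control 1 at 553, 1402 and 1598 normalised reads, and RPL21 was high there at 94.2, 35.5 and 26.9. Both families have many near-identical pseudogenes, among which reads can be split, so these values are uncertain. The rest stayed under the threshold, as in RPS4X at 35107, 34176 and 32870 and RPSA at 27723, 28967 and 28778. Of the 48, 32 were lowest in control 3, against 36.9% of all features tested, and 29 highest in control 1, against 44.9%. RPS6, the member with the most reads, had 66165, 54101 and 49180. None of the 13 mitochondrial genes was variable, but 11 were lowest in control 3, against 36.9% of all features tested, such as MT-ND4 at 71822, 59586 and 39466.

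Antigen presentation genes were present, with 0 of 12 variable for class I and 0 of 13 for class II. Against 7.62% of all features tested, these lists are too small to be called steadier. TAP1, which moves peptides into the endoplasmic reticulum, had 9094, 8310 and 9076 normalised reads, and NLRC5, the class I transactivator, had 7590, 7404 and 7346. For class II, the invariant chain CD74 had 16530, 16123 and 13632, HLA-DRB1 had 6916, 8078 and 7773 and DLA-DQA1 had 4703, 5129 and 4521. The class II transactivator CIITA had 422, 675 and 822. As background, resting dog T cells carry MHC class II on their surface, unlike those of the mouse. B cells also carry these genes, and the part of B cell RNA in these values was not tested.

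A division programme was readable at a low level and did not separate the samples. MKI67, a marker of cycling cells, had 506, 594 and 742 normalised reads, TOP2A had 684, 645 and 708 and TYMS had 658, 700 and 700. The replication helicase subunit MCM4 had 2595, 2667 and 2595. Of 29 tested division genes 2 were variable (6.90%): NUSAP1 at 206, 102 and 188 and BUB1 at 108, 52.8 and 73.2, and control 2 was the lowest sample in each. Among 17 tested apoptosis regulators 1 was variable (5.88%), PMAIP1, high in control 1 at 467, 235 and 162. The division and apoptosis shares were both near the 7.62% of all features tested. The survival gene MCL1 had 8385, 7419 and 7566, and BCL2 had 4162, 2228 and 2228.

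Traces of other cells were sought through lists of their markers, summed as RPM, reads per 1000000 reads of the library. Some lists hold a gene that T cells express themselves, so each sum is also given without its highest member. The B and plasma cell list came to 201, 200 and 230 RPM, and without CD79A to 140, 151 and 185. It had 19 matched members, 11 of them tested and none at 0 in all controls. The list had 0 variable members, with too few tested to set against the 7.62% of all features tested. CD79A, a chain of the B cell receptor, had 969, 759 and 652 normalised reads, MS4A1, which encodes CD20, had 209, 212 and 366 and CD79B had 172, 176 and 173. JCHAIN, of antibody-secreting cells, had 869, 736 and 692. B lineage reads were therefore present in each control.

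The CD8 genes had few reads, above the floor in each control. CD8A had 30.0, 33.8 and 13.9 normalised reads and CD8B had 66.9, 53.7 and 69.5. TRDC, the constant region of the delta receptor chain, had 19.1, 15.7 and 42.6. The list of CD8 and gamma delta genes summed to 157, 129 and 143 RPM, nearly all of it CRTAM, which activated CD4+ cells can also express; without it the sums were 13.2, 10.2 and 11.8.

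Few cytotoxic and natural killer genes had enough reads to be tested, too few to set against the 7.62% of all features tested. GZMK, a granzyme of memory T cells, was the 1 variable member of 5 tested, high in control 1 at 845, 414 and 232 normalised reads. GZMB had 62.8, 14.9 and 9.26, KLRD1 had 31.4, 8.26 and 10.2 and PRF1, which encodes perforin, had 21.8, 9.91 and 9.26. All 4 were highest in control 1, but the last 3 had means under 50 and were not tested. NCR1, a defining natural killer receptor, had 0, 0 and 0.926, under the floor. CTSW took most reads of the list, at 1301, 1106 and 1402, and without it the sums were 117, 80.5 and 81.3 RPM.

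Myeloid markers were at or near 0. The monocyte and macrophage list came to 13.2, 18.6 and 17.4 RPM, led by LYZ, which encodes lysozyme, at 84.6, 133 and 69.5 normalised reads. CSF1R, the receptor that macrophages need, had 2.73, 9.08 and 13.0, and FCER1G and VSIG4 had no reads. Without members that a T cell list holds, the neutrophil list came to 19.0, 22.1 and 21.0 RPM. S100A8, a calgranulin of neutrophils, had 2.73, 8.26 and 0 normalised reads, S100A12 had 0, 1.65 and 0.926, and ELANE and CEBPE had none. Dog neutrophils carry CD4, as background, so these markers bear on a CD4 sort.

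Among other lineages, the dendritic cell list without CCR7 came to 44.3, 54.7 and 68.7 RPM. Sums of different lists are not compared, because their genes differ in number and length. Of the 16 matched dendritic members 7 were tested, CCR7 among them, and the median of their means was 101 normalised reads. Of those 7, 5 were highest in control 3, against 33.0% of all features tested. The count of variable members was 0, in a list too small to set against the 7.62% of all features tested. CLEC9A, a member not tested, had 0, 0 and 1.85 normalised reads. Platelet markers summed to 20.8, 15.2 and 20.5 RPM and erythroid markers to 14.5, 14.6 and 17.2, the latter mostly ALAS2 at 146, 162 and 206 normalised reads, with 5 of 9 erythroid members at 0. The stromal list without THY1, which dog T cells express, came to 7.09, 3.03 and 4.37, with COL1A1 at 2.73, 0 and 5.56 normalised reads and 3 of 20 members at 0. The endothelial list came to 66.6, 50.8 and 49.1 RPM, and without KDR to 27.4, 31.3 and 31.2. Of its 16 matched members 3 were tested, too few to set against the 7.62% of all features tested. KDR was the 1 variable member, high in control 1 at 626, 298 and 262 normalised reads. CDH5, not tested, had 0, 0.826 and 0. CDH1, listed as epithelial, had 356, 497 and 595, whereas EPCAM had 45.0, 20.6 and 17.6. Thymocyte genes were scarce: RAG1 and PTCRA had no reads and DNTT had 64.2, 58.6 and 42.6.

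**Figure D2:**
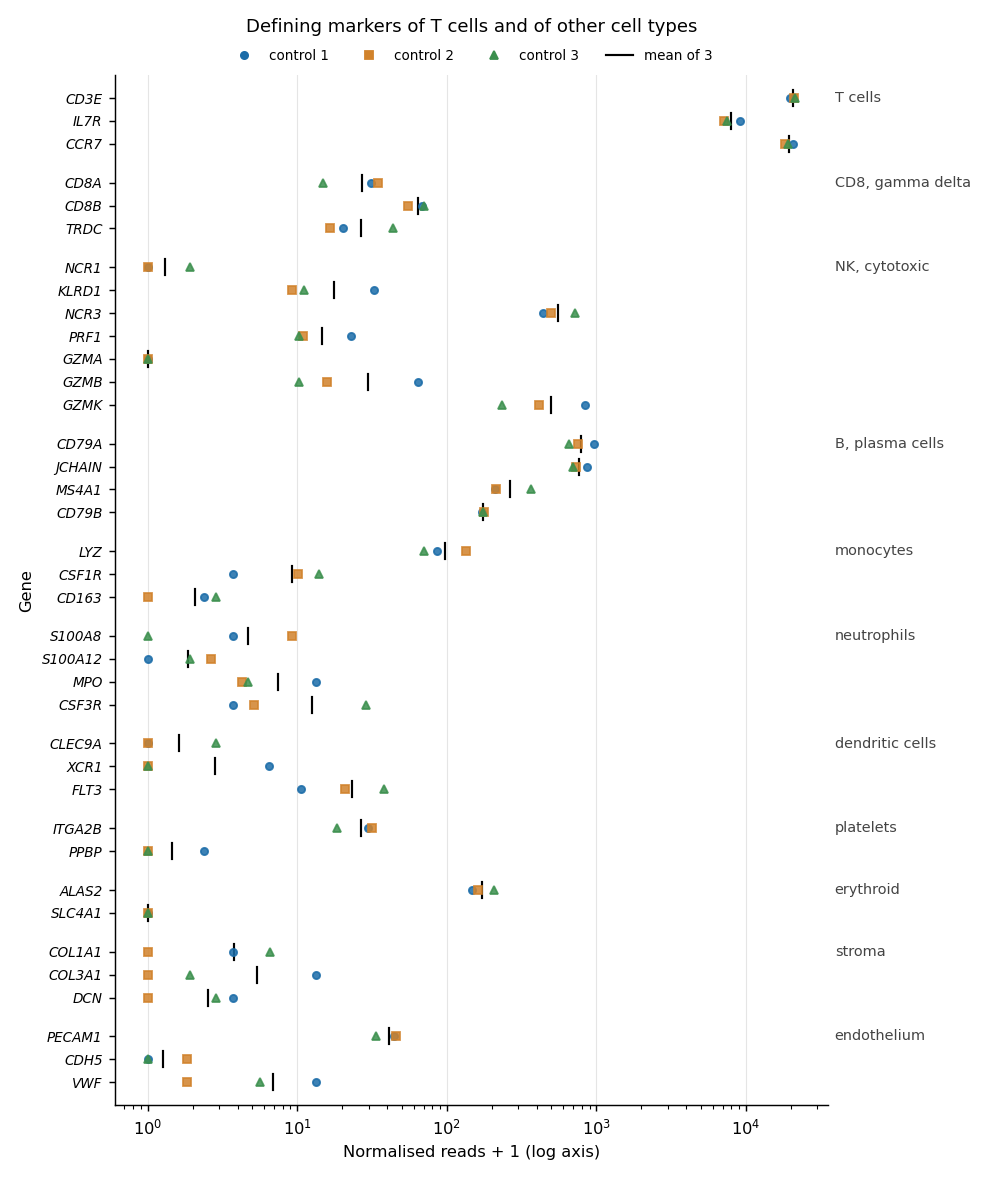
Normalised reads plus 1, on a log axis, of T cell genes and of markers of other cell types in the 3 controls, 1 row per gene and 1 marker per control. The lowest of the T cell values is 7174 (IL7R, control 2), the B and plasma cell genes drawn range from 172 to 969, and most myeloid, stromal and endothelial markers lie near the left edge, where a value of 0 is drawn.

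The controls differed from each other by more than counting error, and control 1 was the sample most often apart. The median absolute log2 ratio was 0.24 between controls 1 and 2, 0.29 between controls 1 and 3, and 0.16 between controls 2 and 3. Values at least 2-fold apart numbered 404, 677 and 174 features in those pairs. A dispersion index, which is 1 where reads vary as counting error alone, had a median of 8.06 over the features tested. The biological coefficient of variation, edgeR's common estimate of the spread between libraries beyond counting error, was 0.194, and 0.139 without control 1.

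Of the 851 variable features, 555 had control 1 apart (65.2%), 83 had control 2 apart and 213 had control 3 apart. A sample is called apart when it lies farther from the middle value on the log2 scale. By direction, 394 features were low in control 1 (3.53% of those tested) and 161 high (1.44%). In control 2, 46 were low (0.412%) and 37 high (0.331%). In control 3, 139 were low (1.25%) and 74 high (0.663%). Variation was more common at low levels, with 19.0% of features called at means from 50 to under 200 and 1.84% from 1000 to under 5000. Control 1 also had the fewest reads, and the part of depth in this pattern was not tested. Among features with a mean of at least 1000, 70 of 3367 were variable, or 2.08%.

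**Figure D3:**
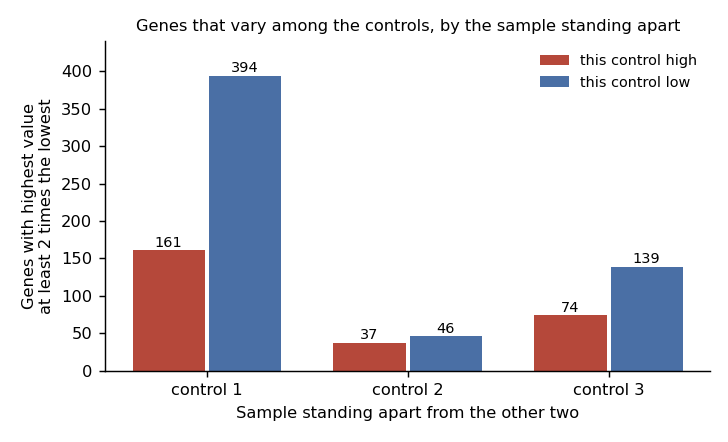
Number of variable features in which each control stood apart from the other two, split into those where it was high and those where it was low. Control 1 stood apart low in 394 features, the tallest bar, and control 2 stood apart in the fewest.

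Immediate early genes, which T cells switch on within minutes of a stimulus, were low in control 3 in many members. FOS, a subunit of the AP-1 transcription factor, had 38620, 42460 and 7754 normalised reads. DUSP1, the phosphatase that limits MAP kinases, had 14606, 13311 and 2745, and FOSB had 10298, 15012 and 2484. In each of these control 3 was the low sample, below both other controls.

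Of the other AP-1 subunits, JUN had 4650, 6810 and 1555 normalised reads and JUNB had 7279, 9933 and 3900, again with control 3 low. NR4A2, an orphan nuclear receptor induced by receptor signals, had 1398, 1613 and 397. RGS1, which damps chemokine receptors, had 22278, 16387 and 7448, and TNFAIP3, the A20 inhibitor of NF-kappaB, had 8243, 5433 and 2867. ATF3, of the stress response, had 117, 208 and 13.0 and KLF4 had 233, 297 and 38.0.

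In all, 15 of 30 tested members were variable (50% against 7.62%), 13 with control 3 low and 2 with control 2 high. The 2 were JUND at 3770, 7538 and 3272 and NR4A1, which encodes NUR77, at 493, 893 and 308. The group's summed level was 10579, 11492 and 5452 RPM, and the median log2 difference of control 3 from the mean of the other controls was -0.84, against -0.01 over all features tested. Without control 3 no member was variable.

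Several members were steady: DUSP2 had 6056, 5341 and 5991 normalised reads, MYC had 3161, 3363 and 3661 and NFKBIA, the inhibitor of NF-kappaB, had 3284, 2985 and 3474. EGR1, a zinc finger factor, came just under the threshold at 4521, 6360 and 3200. Of the heat shock and stress genes 2 of 13 tested were variable (15.4%, against 7.62% of all features tested), both low in control 3. They were DNAJB1 at 945, 1877 and 455 and HSPH1 at 661, 960 and 431. HSP90AB1 had 14581, 15958 and 15562. RHOB, a small GTPase outside these lists, was low in control 3 as well, at 62.8, 115 and 15.7.

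Interferon-stimulated genes, the antiviral genes switched on by type I interferon, were high in control 1 in many members. MX1, a GTPase that blocks viral replication, had 927, 321 and 135 normalised reads. OAS1, a sensor that activates RNase L, had 1013, 409 and 265, and IFI44 had 3412, 1289 and 1022. IFIT1, which binds foreign RNA, had 598, 269 and 94.5. Every one of these was highest in control 1 and lowest in control 3, with control 2 between.

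Of 25 tested members 15 were variable (60.0% against 7.62%), 12 with control 1 high and 3 with control 3 low. The highest value was in control 1 for 22 of the 25, against 44.9% of all features tested, and the lowest in control 3 for 19, against 36.9%. Their median log2 difference was 0.97 for control 1 and -0.79 for control 3, each from the mean of the other controls, against 0.04 and -0.01 over all features tested. The mean set against control 3 includes control 1, so these differences are not separate. The list summed to 4351, 3193 and 4052 RPM. Without TRIM22, its highest member, the sums were 2775, 1834 and 1769 RPM, with controls 2 and 3 close to each other. SAMD9L had 11767, 5817 and 5934, MX2 had 2011, 1241 and 844, HERC6 had 1078, 352 and 340 and ISG15 had 243, 120 and 97.2. Without control 1 the count of variable members was 3, and without control 3 it was 9.

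TRIM22 went the other way and was highest in control 3, at 25198, 20733 and 33369 normalised reads. IRF1, also a target of interferon gamma, had 3923, 3652 and 3366, BST2 had 1863, 2012 and 2093 and OAS3 had 2778, 2278 and 2287, none of them variable. Genes outside the list, chosen after their values were seen, included DDX60 at 711, 163 and 130, EPSTI1 at 115, 33.0 and 11.1, Oasl1 at 1455, 458 and 370 and CD274, which encodes PD-L1, at 207, 93.3 and 78.7.

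**Figure D4:**
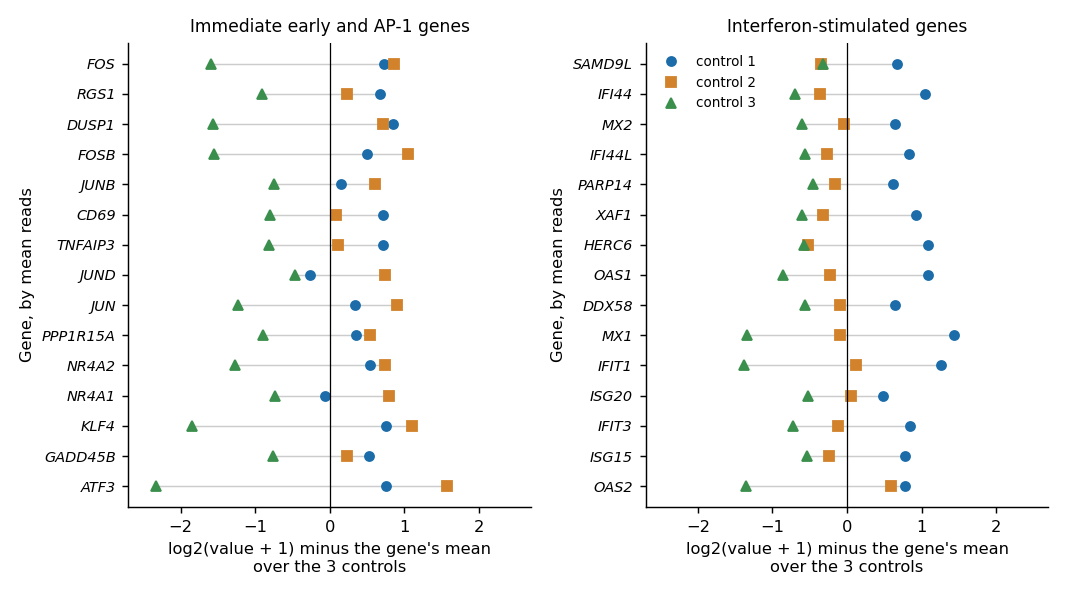
Variable immediate early genes (left) and variable interferon-stimulated genes (right) in the 3 controls, as log2(value + 1) minus the gene's mean over the controls, with the zero line at that mean. On the left control 3 is the lowest point in each row, and on the right control 1 is the highest point in each row.

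Among features with a symbol, the largest single differences lay elsewhere. PEG3, an imprinted gene, had 823, 214 and 2.78 normalised reads, the last at the floor of 3 reads. ACSF2, an acyl-CoA synthetase, had 0, 150 and 168 and CHAD had 0, 89.2 and 113, so control 1, whose floor is 4.09, showed no read of either. These 2 genes overlap in the RefSeq annotation of another dog assembly, UU_Cfam_GSD_1.0, and their reads may not be separable. A second feature named RPS27A had 112, 134 and 0, while the feature with most RPS27A reads had 10066, 10362 and 9827. Those 3 are the variable features with a symbol that had 0 reads in a control.

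Among features with a symbol, control 1 was apart in 12 of the 20 largest ratios and low in 10 of them. AXIN2, a target and brake of Wnt signalling, had 28.7, 201 and 250 normalised reads there, and FCER2, the low-affinity IgE receptor CD23, had 8.19, 69.4 and 87.1. IRGC had 6.82, 63.6 and 87.1, FANCF had 6.82, 78.4 and 83.3 and MTCL1 had 9.55, 109 and 98.2. MAPK15, UBALD1 and TPGS1 completed this set. T cell genes with the same pattern, named after their values were seen, were LFNG, which modifies Notch, at 190, 623 and 729, CD52 at 308, 754 and 1203, S1PR4 at 217, 504 and 699, and TNFRSF25, the death receptor DR3, at 1253, 2185 and 2654.

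Control 2 was apart in 1 of the same 20 features with a symbol, AQP3, a water and glycerol channel of T cells, at 209, 30.5 and 224 normalised reads. Its next largest ratios were NALCN at 179, 46.2 and 92.6, SOGA1 at 31.4, 99.1 and 55.6, the nuclear receptor NR4A1, and MYBL1 at 112, 38.8 and 75.9. Control 3 had few features on the high side; the ones with the largest ratios, chosen after their values were seen, were VAV2 at 28.7, 33.8 and 100.02, ZNF444 at 80.5, 140 and 268 and NDUFV3, of respiratory complex I, at 880, 618 and 1973.

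Genes whose symbol starts with RRP, most of which act in ribosomal RNA processing, were also low in control 3. They were chosen as a group after their values were seen, so their counts are no independent result. All 7 were lowest in control 3, against 36.9% of all features tested. Of the 7 tested, 6 were variable, against 7.62% of all features tested. RRP12, a factor for export of ribosomal subunits, had 440, 462 and 68.5 normalised reads in controls 1, 2 and 3. RRP15 had 652, 604 and 179, RRP8 had 475, 540 and 182, and RRP1 had 904, 1278 and 409. RRP9 had 300, 402 and 172 and RRP7A had 79.2, 66.9 and 37.0. RRP1B came just under the threshold at 1990, 1989 and 1017. The median log2 difference of control 3 from the mean of the other controls was -1.39 for these genes. It was -0.10 for 20 tested genes named NOP, NOL or UTP and -0.18 for ribosomal protein genes. Choosing the RRP genes after their values were seen can widen this gap, so it does not measure a difference between the groups. None of the 20 was variable: NOP56 had 2146, 2125 and 2048 and NOL10 had 1190, 1205 and 1139. The immediate early genes were low in the same control, and whether these patterns are related was not tested.

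**Figure D5:**
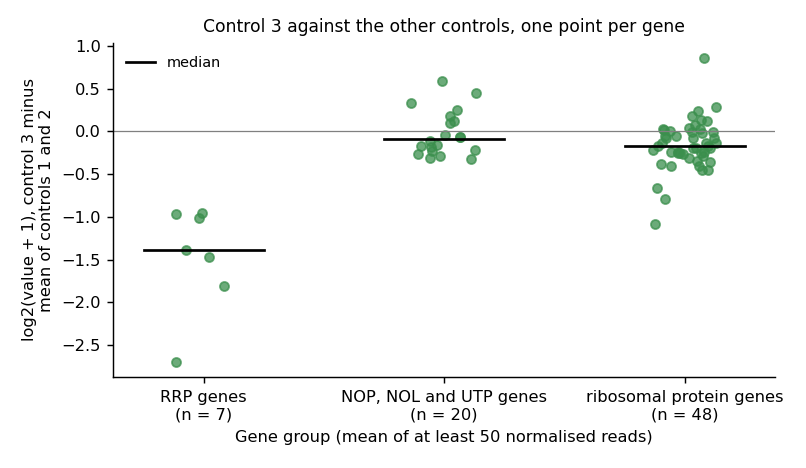
log2(value + 1) in control 3 minus the mean of controls 1 and 2, 1 point per gene, for RRP genes, genes named NOP, NOL or UTP, and ribosomal protein genes, with a line at each median. All 7 RRP genes lie below 0, around a median of -1.39, and the medians of the other groups are -0.10 and -0.18. The RRP genes were chosen after their values were seen.

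Among features without a symbol, 2 had a deficit in control 3 at a higher level. ENSCAFG00000022709 had 5757, 3958 and 105 normalised reads and ENSCAFG00000022711 had 9624, 7353 and 241. Control 3 was thus at 2.15% and 2.84% of the mean of the other controls. What these features encode is not given in the files. Their identifiers lie close to that of the mitochondrial COX1, ENSCAFG00000022723, and whether they are mitochondrial was not tested. They are not among the 13 mitochondrial genes counted above.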

How the data were processed

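Messenger RNA of 3 control samples of sorted canine CD4+ T cells was analysed. The tools named in the submitters' processing notes are TopHat2, HTSeq and DESeq2, with build CanFam3.1; versions, strand setting and filters are not given in the sources used here. The deposited values are a signal: the authors' read counts per gene divided by 1 size factor per library. Dividing each library's values by what 1 read is worth in it gave whole reads, within 0.01 reads, for 100% of values. RPM values, shares, floors and the dispersion index used those reads, and all else the deposited values.

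As 1 group has no contrast, no test was made. Features without a symbol (12485, 15.9% of reads) stayed in all totals. The biological coefficient of variation came from edgeR 4.0.16 under R 4.3.3, the rest from Python 3.11.15 with numpy 2.4.6 and pandas 2.3.3. Log2 values have a pseudocount of 1. Scripts were tested on simulated data.

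Named genes were the 20 with the most reads, the 20 largest ratios of highest to lowest value plus 1 among features with a symbol, the 5 largest for each sample apart, the 10 steadiest, and members of 43 lists, matched by symbol. Genes whose symbol was not matched are not analysed here, and values of a few listed genes are not reported here. A planned share of immunoglobulin genes was not computed. The members and lists were chosen with earlier results of these data known. No sequence was used, and gene coordinates only to see whether ACSF2 and CHAD overlap in RefSeq's UU_Cfam_GSD_1.0.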

Additional observations from a re-analysis of the deposited data

How the results depend on the processing

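Of the alternatives to the results that describe the group, 127 left the value within its limits (1.5 times for a count, 1 SD for a level) and 34 moved it. The 851 variable features became 2494 at a mean of at least 10, 304 at a mean of at least 200, 2906 at a ratio of at least 1.5, 204 at a ratio of at least 3 and 505 over features with a symbol only, an alternative chosen after seeing the data. Leaving out each replicate in turn gave 174 to 677 features, the 174 without control 1. Such counts of variable features cannot rise, because leaving out a sample cannot raise the ratio of highest to lowest. At a ratio of at least 3 the variable immediate early genes numbered 7 and the interferon-stimulated genes 6. Leaving out each replicate gave 0 to 12 for the former (0 without control 3) and 3 to 14 for the latter (3 without control 1), 0.139 to 0.243 for the biological coefficient of variation and 3.36 to 9.005 for the median dispersion index. Over features with a symbol only, ribosomal protein genes took 7.26% and mitochondrial genes 3.71% of reads. Without mitochondrial genes the 20 and 100 features with the most reads took 7.02% and 19.0%. Without the highest member of each list the summed RPM were 92.9 for cytotoxic and natural killer genes, 11.8 for CD8 and gamma delta genes, 1544 for MHC class II, 159 for B and plasma cells, 10.1 for monocytes, 20.7 for neutrophils, 55.9 for dendritic cells, 6.75 for platelets, 4.16 for erythroid cells, 3.66 for mast cells, 4.83 for stroma, 30.0 for endothelium, 3.04 for epithelium and 8.78 for thymocytes. The neutrophil and dendritic sums were the same, 20.7 and 55.9, without members that a T cell list holds. No paired analysis was possible because the results come from 1 group and from no test. Depth limits genes near 3 reads per library, where a 0 does not show absence.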

Other observations

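The thymosin beta 4 reads were listed under an unusual name. The feature named TMSB4Y had 27387, 23720 and 21073 normalised reads, while TMSB4X had 17.7, 4.13 and 1.85. The family has near-identical copies, so the split of reads between them is uncertain. The feature named for the microRNA host locus, cfa-mir-155, had 120, 27.2 and 45.4, high in control 1. DLA DRA, found under that spelling with a space, had 13734, 12853 and 12619 and was even across the controls.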
